A study of Caenorhabditis elegans with 2 samples.

Results

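The FAR genes of Caenorhabditis elegans encode fatty acid and retinol binding proteins, and the family comprises far-1 to far-8. All 8 symbols were matched to exactly 1 WormBase identifier each, among the 46748 identifiers of the deposited count table. RNA came from whole wild-type hermaphrodites aged 5 days, whose food was heat-inactivated Escherichia coli OP50, the standard laboratory bacterium. The sample titles carry the strain name N2, while the strain field gives wild type with no further detail, and the series title places the animals in work on diet and lifespan. Both libraries belong to this 1 group, so the data hold 2 replicates and no contrast between conditions. The labels do not name separate cultures or animals as their origin, and the spread between replicates could then be technical only.

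FAR proteins are small, helix-rich lipid carriers that are known from nematodes and not from their hosts. They bind fatty acids and retinol, which are poorly soluble in water, and many of them are secreted. Parasitic nematodes release them in quantity, for example Onchocerca volvulus in humans and Globodera pallida in plants. The crystal structure of C. elegans FAR-7 showed separate pockets for the fatty acid and the retinol. Earlier sequence comparisons placed the worm's genes in 3 subgroups, A with far-1, far-2 and far-6, B with far-3, far-4 and far-5, and C with far-7 and far-8. FAR-1, FAR-2 and FAR-6 are the ones most like the FAR proteins of parasites.

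Replicate 1 was sequenced to 28164638 counts and replicate 2 to 31271070. Levels are given as CPM per kb, that is, counts scaled to the library's own total (CPM) and divided by the exon length of the gene, so that genes can be compared with each other. Detection meant 10 or more counts in each library, which 12268 of 19641 protein-coding genes reached. The median detected protein-coding gene stood at 11.5 CPM per kb. Markers of intestine (5 of 5), body wall muscle (4 of 4), epidermis (4 of 4), pharynx (2 of 2), neurons (5 of 5) and germline (4 of 4) were detected. Of 4 sperm markers 2 were detected, and the summed level of all 4 was 0.882 and 0.725 CPM per kb in replicates 1 and 2.

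All 8 FAR genes were detected, against 62.5% of all protein-coding genes by the same rule. With 100 or more counts in each library there were 5 of 8, against 42.9% of all protein-coding genes. They covered a very wide range of levels. The most abundant gene, far-2, stood 3151-fold above the least abundant, far-4, in replicate 1 and 4583-fold above it in replicate 2. The gene far-4 had under 20 counts in each library, so the size of these ratios is loosely fixed. They fell into tiers: far-2, far-1 and far-3 at 454 to 3139.5 CPM per kb, far-8 and far-6 at 66.4 and 56.05, and far-5, far-7 and far-4 at 3.91 or less. The gaps between the tiers were 6.79-fold from far-3 down to far-8 and 14.4-fold from far-6 down to far-5, as the mean over the libraries on the log scale. In RNA from whole animals, fewer expressing cells and less RNA per cell cannot be told apart.

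**Figure D1:**
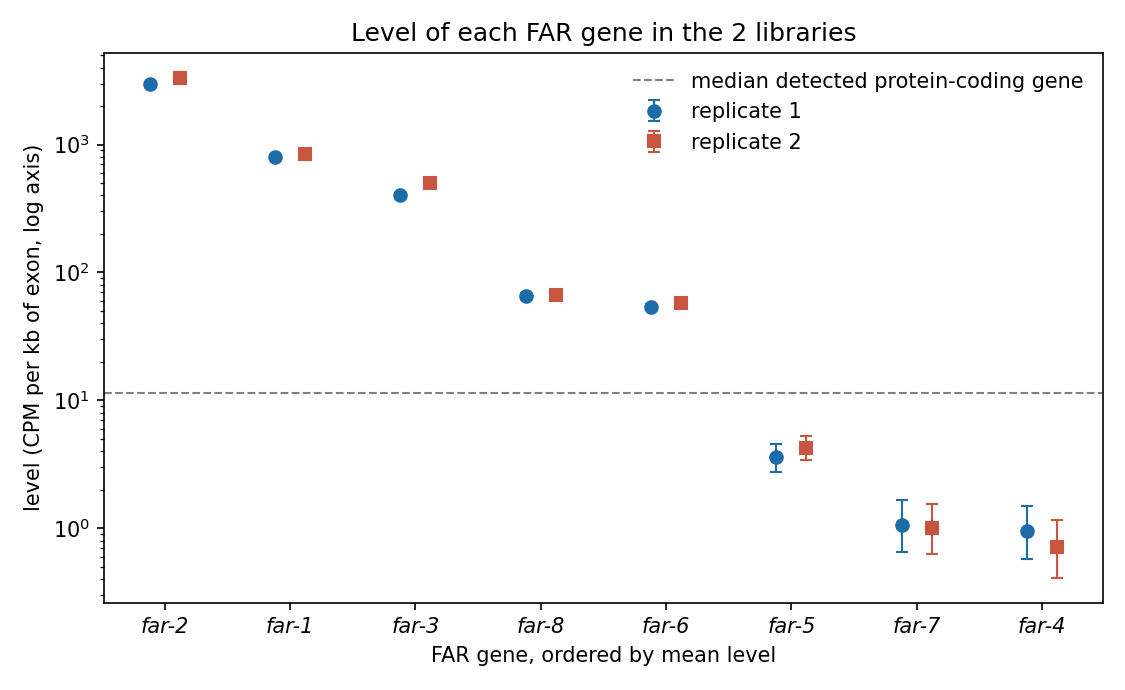
Level of each FAR gene (CPM per kb of exon, log axis) in replicate 1 (circles) and replicate 2 (squares), in order of mean level. Bars are 95% exact Poisson intervals, which cover counting error only, and the dashed line is the median detected protein-coding gene at 11.5 CPM per kb. The 5 genes far-2, far-1, far-3, far-8 and far-6 sit above the line and far-5, far-7 and far-4 below it.

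The gene far-2 (WBGene00001386, chromosome III, 9081828 to 9082511, plus strand, WBcel235) encodes a protein of 182 residues of subgroup A. It had 51457 counts in replicate 1 and 63035 in replicate 2, which are 2985 and 3294 CPM per kb (mean 3139.5 ± 218, SD, n = 2). It held rank 7 of all 19641 protein-coding genes in both libraries, and its level was 273 times the median detected protein-coding gene. Without division by length it was rank 23, at 1921 ± 133 CPM. The short transcript, with 612 bp of exon, thus placed higher by level than by reads.

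Also of subgroup A and 182 residues long, far-1 (WBGene00001385, chromosome III, 9080371 to 9081179, minus strand) was the second most abundant. It had 14663 and 17355 counts in replicates 1 and 2, and its level was 797 and 849.9 CPM per kb (824 ± 37.2). That was rank 132 of the protein-coding genes by mean level, 71.6 times the median detected gene. The level of far-2 exceeded that of far-1 by 3.74-fold in replicate 1 and 3.88-fold in replicate 2, a log2 ratio of 1.93 ± 0.04 (n = 2). The values of these genes did not overlap between the libraries. Sequence likeness within the family, which could split reads between members, was not analysed here.

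The third abundant gene was far-3 (WBGene00001387, chromosome V, 12996787 to 12997522, minus strand), of subgroup B, with 189 residues. It had 7668 counts in replicate 1 and 10577 in replicate 2, or 405 and 503 CPM per kb (454 ± 69.3). Its rank was 239 in replicate 1 and 207 in replicate 2. It lay 1.97-fold and 1.69-fold below far-1 in these libraries, so the distance between these neighbours in the order varied more than that between far-2 and far-1. Together far-2, far-1 and far-3 held 96.2% of all FAR counts in replicate 1 and 96.4% in replicate 2.

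The middle tier held far-8 and far-6. The gene far-8 (WBGene00001392, chromosome III, 842930 to 843802, plus strand) is of subgroup C, and its protein has 232 residues, more than any other member. It had 1448 and 1639 counts, or 65.7 and 67.02 CPM per kb in replicates 1 and 2 (66.4 ± 0.905). The gene far-6 (WBGene00001390, chromosome IV, 13328359 to 13329314, plus strand), of subgroup A, had 1385 and 1645 counts, or 54.2 and 57.9 CPM per kb (56.05 ± 2.67).

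By exon length far-8 lay above far-6 in both libraries, 1.21-fold and 1.16-fold. That order rests on the length used. The annotated 3′ untranslated region of far-6 spans 351 bp, against 61 to 102 bp in the other members, and with coding length in its place far-6 was the higher (log2 ratio of far-8 over far-6 of -0.30). Reads alone put them at 51.9 ± 0.708 CPM for far-8 and 50.9 ± 2.42 CPM for far-6, values that overlapped between the libraries.

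The scarce tier held far-5, far-7 and far-4. The gene far-5 (WBGene00001389, chromosome V, 12995569 to 12996836, plus strand), of subgroup B, had 66 and 87 counts, or 3.58 and 4.25 CPM per kb in replicates 1 and 2 (3.91 ± 0.474). Of the detected protein-coding genes, 35.99% had a lower level. The subgroup C gene far-7 (WBGene00001391, chromosome II, 319789 to 321110, plus strand), whose protein of 138 residues is the shortest, had 20 and 21 counts, or 1.07 and 1.01 CPM per kb (1.04 ± 0.0409). The subgroup B gene far-4 (WBGene00001388, chromosome V, 12998427 to 12999659, minus strand) had 19 and 16 counts, or 0.947 and 0.719 CPM per kb (0.833 ± 0.162).

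The counts of far-7 and far-4 were too low to order them. In replicate 1 the 95% exact Poisson interval ran from 0.651 to 1.65 CPM per kb for far-7 and from 0.570 to 1.48 for far-4, and in replicate 2 from 0.624 to 1.54 and from 0.411 to 1.17. These intervals overlapped in both libraries. A difference between them was not detectable at this depth. Both genes stood above the level that 3 counts give, which is 0.107 CPM in replicate 1 and 0.0959 CPM in replicate 2 before division by length.

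**Figure D2:**
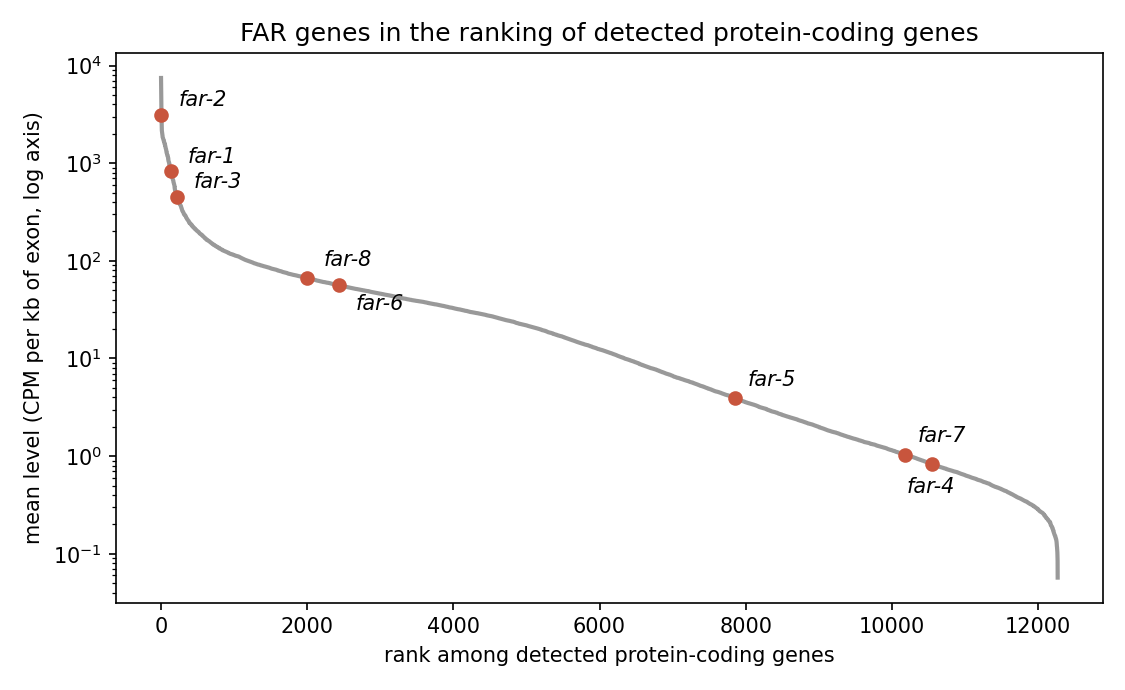
Mean level over the 2 libraries (CPM per kb of exon, log axis) of all 12268 detected protein-coding genes in order of rank, with the FAR genes marked. The genes far-2, far-1 and far-3 lie on the steep left end of the curve and far-5, far-7 and far-4 lie in its right part.

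The family took 76726 counts in replicate 1, or 0.272% of the library (95% Wilson interval 0.271% to 0.274%), and 94375 counts in replicate 2, or 0.302% (0.2999% to 0.304%). The mean share was 0.287% ± 0.0208 (n = 2), and these intervals cover counting error only. Subgroup A held 87.98% of FAR counts in replicate 1 and 86.9% in replicate 2. Subgroup B held 10.1% and 11.3%, nearly all of them from far-3, and subgroup C 1.91% and 1.76%, nearly all from far-8.

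Each subgroup joined an abundant or intermediate gene to a much scarcer one. In subgroup B, far-3 stood 544-fold above far-4, its neighbour on the chromosome. In subgroup A, far-2 stood 56.02-fold above far-6, and in subgroup C, far-8 stood 63.998-fold above far-7. The median levels were 824 CPM per kb in subgroup A, 3.91 in B and 33.7 in C. With 2 or 3 genes a subgroup, these medians describe those genes and were not tested.

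On the chromosomes 5 of the 8 genes sit in local groups, 1 on chromosome III with abundant members only and 1 on chromosome V with abundant and scarce members. The genes far-1 and far-2 lie head to head on chromosome III, transcribed away from each other, with 648 bp between their starts. The annotation places 2 non-coding RNA genes in that gap, F02A9.8 and F02A9.9, and both had 0 counts in both libraries. Within this arrangement both protein genes were abundant. The next protein-coding gene beyond far-1, F02A9.1, had 5 and 1 counts in replicates 1 and 2. The next beyond far-2, mrpl-44, which encodes a mitochondrial ribosomal protein, stood at 92.7 ± 2.30 CPM per kb.

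The genes far-5, far-3 and far-4 span 4091 bp on chromosome V, and their levels were 3.91, 454 and 0.833 CPM per kb in that order along the chromosome. The scarce genes thus flanked the abundant one. The gene far-3 lies 904 bp from far-4 on the same strand. The genes far-5 and far-3 converge, and the last 50 bp of their 3′ untranslated regions overlap on opposite strands. No source used here states whether the authors counted by strand, and reads from that overlap therefore cannot be assigned to either gene with certainty. For far-5, with 66 and 87 counts beside 7668 and 10577 for far-3, the part of such reads in its value was not tested.

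**Figure D3:**
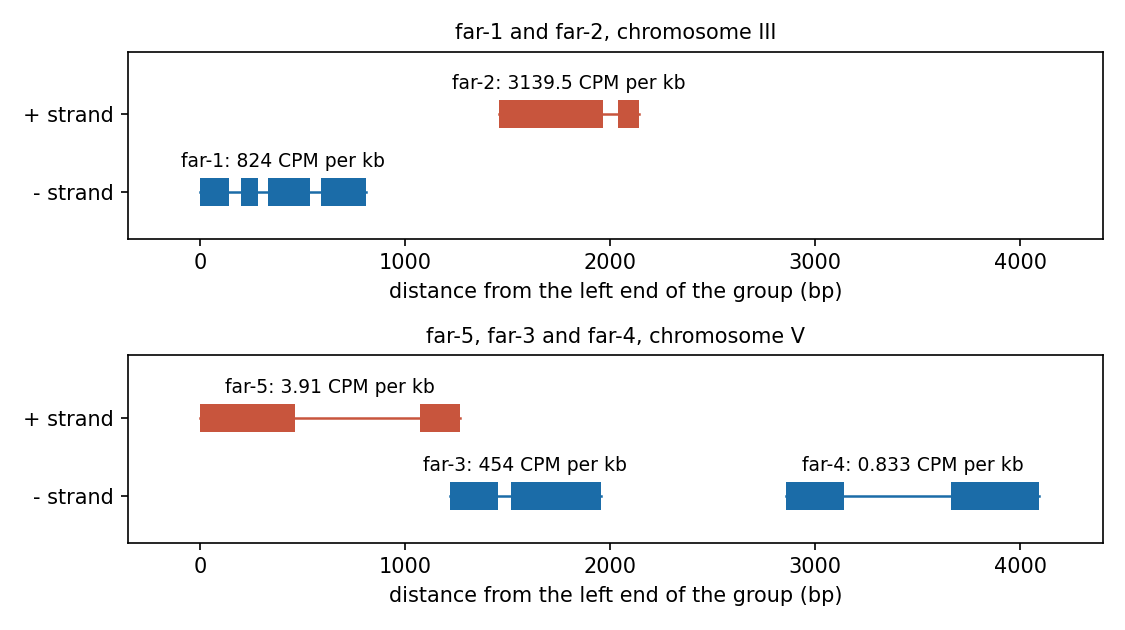
Annotated exons (boxes) and introns (lines) of the far-1 and far-2 group and of the far-5, far-3 and far-4 group, drawn by strand against the distance in bp from the left end of each group, with the mean level of each gene. The genes far-2 and far-1 are both abundant, while far-3 at 454 CPM per kb lies between far-5 at 3.91 and far-4 at 0.833.

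The other members stand alone. The gene far-6 lies 1963 bp downstream of fat-2 on the same strand, a gene for the fatty acid desaturase that starts polyunsaturated fatty acid synthesis. The gene fat-2 stood at 674.8 ± 29.7 CPM per kb, above far-6 at 56.05 ± 2.67. On its other side, 192 bp away and on the opposite strand, pqn-74 had 1.38 ± 0.482 CPM per kb. The gene far-8 lay between K02F3.9 at 13.4 ± 2.51 CPM per kb and K02F3.2 at 24.7 ± 0.0190. The scarce far-7 lay between K01A2.9, with 0 counts in both libraries, and K01A2.10 at 4.98 ± 0.790 CPM per kb.

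Total intron length, which was not among the planned features, separated the upper tiers from the scarce one. Intron length was taken from the annotated transcript with the longest coding sequence. The 5 genes above the median level carried 48 to 156 bp of intron in all (far-6 48, far-3 63, far-2 72, far-8 91 and far-1 156 bp). The 3 scarce genes carried 521 bp (far-4), 613 bp (far-5) and 790 bp (far-7). The ranges did not overlap. For far-7, which has 4 annotated transcripts, 656 bp of the gene lie outside the exons of all of them, still more than in any of the 5 genes above the median level. Intron length entered neither the level nor its scaling, since levels were divided by exon length alone.

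Across all detected protein-coding genes the median total intron length was 989 bp, and 15.05% had under 200 bp, as 5 of the 8 FAR genes did. The limit of 200 bp lies in the gap between 156 and 521 bp in the FAR genes. Among the 100 protein-coding genes with the highest levels, 54% had under 200 bp. Over the 8 FAR genes, intron length and log2 level gave Pearson's r as -0.85 and Spearman's rho as -0.57. Over all 12268 detected protein-coding genes Spearman's rho was -0.20. These are descriptions across genes, which share libraries and family history and are not independent replicates. Exon length, from 612 bp in far-2 to 908 bp in far-6, had a rho of -0.48. Levels were divided by exon length, so that rho is partly built in. Coding length, from 414 bp in far-7 to 696 bp in far-8, had a rho of 0.04. Exon number had a rho of 0.04 and the length of the 3′ untranslated region a rho of -0.12.

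**Figure D4:**
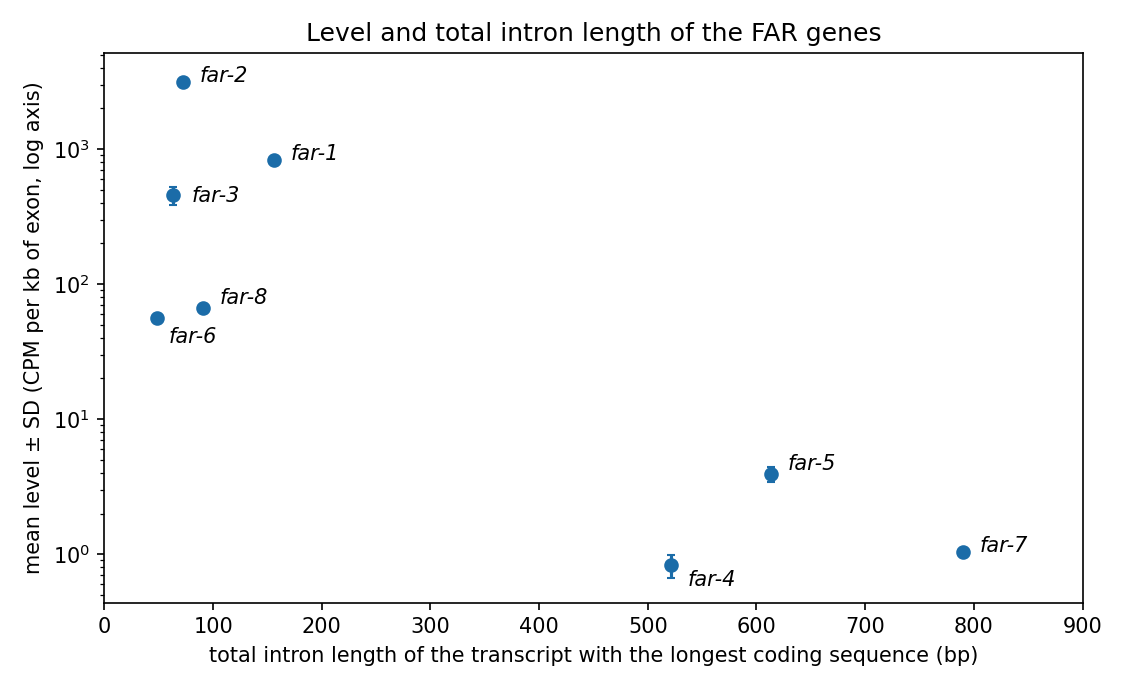
Mean level ± SD over the 2 libraries (CPM per kb of exon, log axis) of each FAR gene against the total intron length in bp of its transcript with the longest coding sequence. The 5 genes with 48 to 156 bp of intron stand above 50 CPM per kb, and the 3 genes with 521 to 790 bp stand below 5.

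Between the libraries no FAR gene passed the threshold of a 2-fold difference with an adjusted p under 0.05. The test was a two-sided exact binomial test on counts with Benjamini-Hochberg adjustment over all 14397 genes tested, of which 0.75% passed. The test holds counting noise only, and it sets the libraries of a single group against each other, not conditions. Without the fold limit far-1, far-2 and far-3 passed, all lower in replicate 1, where 5.66% of all genes tested passed as lower. That share includes genes with few counts. Very small differences pass only in genes with many counts, as these 3 have, so the share is not matched to them.

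The largest of these differences was in far-3, at 272 CPM in replicate 1 and 338 CPM in replicate 2. Its log2 ratio of replicate 1 over replicate 2 was -0.30 (95% exact interval -0.34 to -0.25, exact binomial adjusted p = 2.67e-40). Among the 6152 genes that reached 1000 counts over both libraries, 2.08% differed by more than far-3 in either direction, and the median absolute log2 ratio was 0.06. The far-3 difference was thus large for a well-counted gene, though under 2-fold.

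Smaller differences in the same direction were seen in far-2 and far-1. The gene far-2 had 1827 CPM in replicate 1 and 2016 in replicate 2, a log2 ratio of -0.13 (-0.14 to -0.11, exact binomial adjusted p = 1.33e-45). Among the 6152 genes that reached 1000 counts over both libraries, 18.9% differed by more than far-2 in either direction. The gene far-1 had 521 and 555 CPM, a log2 ratio of -0.08 (-0.11 to -0.04, exact binomial adjusted p = 8.3e-05). Its size was near the median absolute log2 ratio of those 6152 genes, 0.06. The other 5 genes had intervals that included 0, from far-8 at -0.01 (-0.11 to 0.09) and far-6 at -0.08 (-0.18 to 0.02) to far-5 at -0.23 (-0.72 to 0.25), far-7 at 0.10 (-0.86 to 1.05) and far-4 at 0.41 (-0.62 to 1.47). For far-4 and far-7 these intervals are wide enough to hold a 2-fold difference. The summed level of the body wall muscle markers was 385 and 374 CPM per kb, and that of the intestinal markers 114.8 and 107.04, in replicates 1 and 2. Most of the intestinal sum came from act-5, at 74.98 and 68.04 CPM per kb. The intestinal ges-1 alone in that list was lower in replicate 1, at 18.6 and 20.1 CPM per kb. No marker gene passed the 2-fold threshold. Without the fold limit, 8 of 26 marker genes tested passed as higher in replicate 1 (5.69% of all genes tested) and 1, the neuronal snb-1, as lower. This share, too, is not matched to the counts of the markers. Higher levels in replicate 1 were found for 3 of 4 muscle markers, among them unc-54 (log2 ratio 0.19, exact binomial adjusted p = 3.88e-34) and myo-3 (0.26, adjusted p = 7.83e-06), and for act-5 among 5 intestinal markers (0.16, adjusted p = 0.0014). Also higher were the germline markers cpg-1 (0.10, exact binomial adjusted p = 1.2e-39) and rme-2 (0.08, adjusted p = 3.47e-15). The epidermal col-19 and the pharyngeal myo-2 passed as higher too. These 8 markers, from several tissues, passed as higher and so lie opposite to far-3 in direction. Markers that did not pass went both ways. In the direction of far-3 were the muscle mlc-2 (log2 ratio -0.02) and the epidermal elt-3 (-0.16), and ifb-2 of the intestine (0.18) was opposite. The neuronal markers summed to 203 and 221.5 CPM per kb in replicates 1 and 2, mostly from snb-1. The part of tissue make-up in the far-3 difference was not tested.

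**Figure D5:**
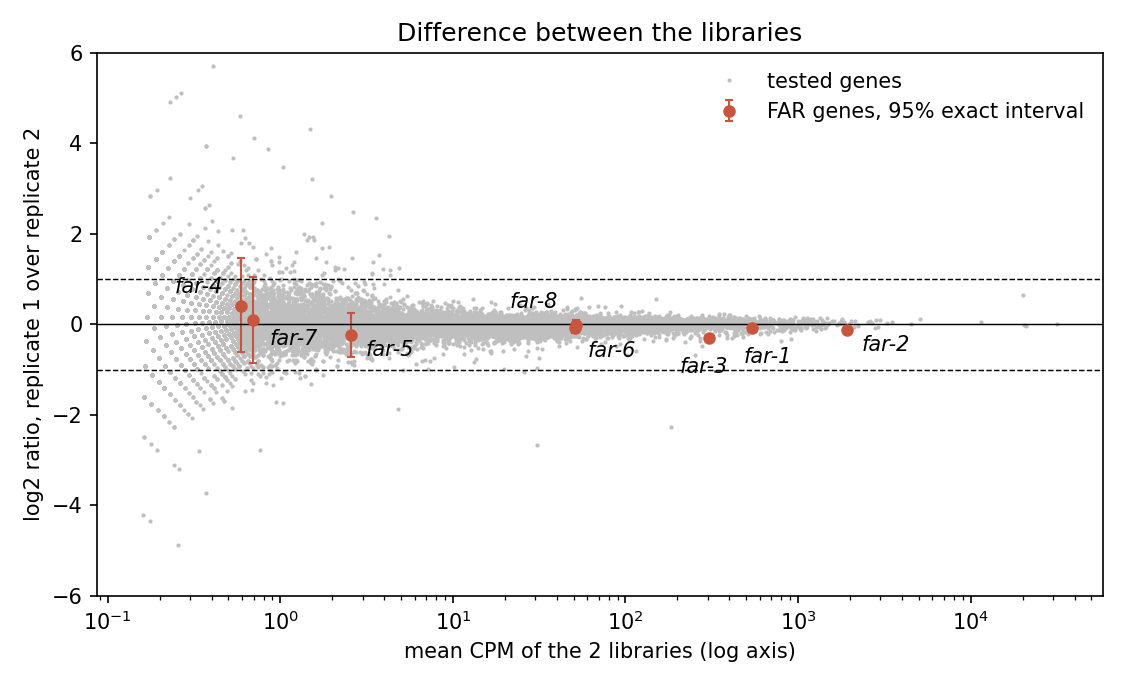
Log2 ratio of replicate 1 over replicate 2 against the mean CPM of the 2 libraries (log axis) for the 14397 genes tested (grey) and the FAR genes (filled circles with 95% exact intervals). Dashed lines mark a 2-fold difference. The points of all 8 FAR genes lie inside them, the intervals of far-4 and far-7 reach past the upper line, and those of far-1, far-2 and far-3 lie below 0.

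The RPKM values the authors deposited gave a different picture of far-3. They read 396 in replicate 1 and 695 in replicate 2, a 1.75-fold difference, where the counts scaled to each library's total gave 1.24-fold. For far-2 they read 2134 and 2749, a 1.29-fold difference against 1.10-fold, and for far-8 they read 73.3 and 74.8, where both scales gave 1.02-fold. Gene length cancels in such a ratio, and fixed library totals would shift every gene by the same factor, but the factor differed from gene to gene. Over 3329 genes with 1 annotated transcript and more than 500 counts in both libraries, the ratio in the RPKM table departed from that of the scaled counts by over 0.05 on the log2 scale in 86.9% of genes. Levels are therefore given from the counts.

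Other lipid carriers and uptake proteins, listed by name, gave the setting of the FAR levels. The summed level of the 8 FAR genes was 4313 CPM per kb in replicate 1 and 4777 in replicate 2 (4545 ± 328). The 9 intracellular lipid binding protein genes, lbp-1 to lbp-9, summed to 1462 and 1640 CPM per kb (1551 ± 126), below the FAR genes in both libraries. All 9 were detected, with a median of 38.8 CPM per kb, beside 61.2 for the FAR genes. They were led by lbp-9 at 993 ± 79.7 and lowest at lbp-7 with 6.08 ± 0.241 CPM per kb. As in the FAR family, a single gene gave most of the sum.

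Yolk lipoprotein genes and the yolk receptor gene rme-2 summed to 16312 and 16552 CPM per kb, above the FAR genes in both libraries. Their members ran from vit-1 at 269 ± 2.39 CPM per kb to vit-6 at 6231 ± 0.366 CPM per kb, and 3 of the 7 genes exceeded far-2. The genes vit-3, vit-4 and vit-5 are known as close copies of each other, which could split reads between them, and this was not analysed here.

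The remaining lists lay far lower. Acyl-CoA binding protein genes, whose products carry activated fatty acids inside cells, summed to 243 ± 33.1 CPM per kb over 6 genes. All were detected, from acbp-4 at 0.519 ± 0.105 to acbp-1 at 182 ± 35.9 CPM per kb. The 8 genes for fatty acid transport proteins and scavenger receptors summed to 153 ± 1.63 CPM per kb, from scav-5 at 1.58 ± 0.00645 to scav-3 at 58.6 ± 2.39. The 5 sterol and lipid transfer genes summed to 40.4 ± 1.62 CPM per kb, from ncr-2, a Niemann-Pick type C homologue, at 0.217 ± 0.0262 to nlt-1 at 15.8 ± 2.55. Of 7 lipocalin-related genes 6 were detected, the highest being lpr-3 at 2.75 ± 0.0533 and the lowest lpr-1 at 0.367 ± 0.113 CPM per kb. Of the carotenoid cleavage genes bcmo-1 and bcmo-2, which act on precursors of retinoids, bcmo-2 was detected at 5.46 ± 0.216 CPM per kb and bcmo-1 had 8 and 7 counts. No gene of these lists passed the 2-fold threshold between the libraries. Without the fold limit, 10 of the 44 listed genes passed as lower in replicate 1, against 5.66% of all genes tested. As higher 3 passed, against 5.69% of all genes tested. Lower was also the direction of far-1, far-2 and far-3. The test holds counting noise only, so very small differences pass in genes with many counts. The lower ones were 5 of 9 lbp genes, 4 of 7 yolk genes and acbp-1. Their log2 ratios included -0.81 for lbp-8 (exact binomial adjusted p = 2.83e-06), -0.39 for acbp-1 (adjusted p = 5.83e-17) and -0.15 for lbp-9 (adjusted p = 2.11e-18). Those of the 4 yolk genes were far smaller, from -0.05 for vit-4 to -0.01 for vit-2. The higher ones were vit-6 and rme-2, of the same yolk list, and lrp-1. The genes lbp-8 and acbp-1, like the marker genes named above, were chosen as examples after their values were seen.

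By level in both libraries, the protein-coding genes nearest to far-2 were the ribosomal protein genes rps-25 (3523 and 3348 CPM per kb in replicates 1 and 2), rpl-41.2 (2466 and 3241) and rpl-10 (2368 and 2432). Their largest log2 distances from far-2 in either library were 0.24, 0.28 and 0.44. With 2 libraries of 1 group this likeness is one of level only. No gene of the 12268 lay within 0.1 on the log2 scale of far-2, against 196 within that distance of far-6, so far-2 stood in a sparsely filled part of the range.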

How the data were processed

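RNA-seq of 2 libraries was used. The tools in the submitters' processing notes are STAR (2.4.1d) and, for counting, featureCounts (1.4.6-p4), on build WBcel235. No source used here gives the counting options, the strand setting or the annotation release. The authors deposited raw counts per gene and RPKM values; how RPKM was computed is likewise not given, and RPKM served only as an alternative. Symbols came from the supplied name table, and positions and lengths from an Ensembl annotation of the same build, which held 46449 of the 46748 identifiers. CPM used each library's own total, and levels were divided by the union of annotated exons. SDs are over 2 libraries.

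Libraries were compared, replicate 1 over replicate 2, by a two-sided exact binomial test (SciPy 1.17.1) with TMM effective library sizes from edgeR 4.0.16, over genes with a summed count of 10 or more and with 0.5 added to counts in log2 ratios. On simulated counts with 14417 genes tested, it called 78% of 50 genes changed 2.5-fold, 96% of 50 changed 4-fold and 3 of 14220 unchanged genes. Of 50 genes changed 1.5-fold, which is under the fold limit, it called 0. The simulated counts held Poisson noise only, as the test assumes. They therefore cannot show how often unchanged genes are called where replicates differ by more than counting noise. edgeR's quasi-likelihood test has no contrast in 1 group. Alternatives changed the length, the total, the filters, the fold limit and the size factors (DESeq2 1.42.0), and left out each library. The depth was 28164638 and 31271070 counts, and floors are 3 counts. The named genes were all members, the highest and lowest detected gene of each lipid list, genomic neighbours, and the 3 genes nearest in level to the highest member. Members and lists were chosen with earlier results of these data known. Protein, promoter and codon sequences were not analysed here.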

Additional observations from a re-analysis of the deposited data

How the results depend on the processing

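All alternatives concern 1 group of 2 libraries, and no alternative adds replicates. The median level of the 8 FAR genes, 61.2 CPM per kb, became 83.4 with coding length, 51.4 with no division by length (CPM) and 64.2 with the deposited RPKM, and ran from 59.95 to 62.5 when either library was left out. The log2 ratio of far-2 over far-1, 1.93, became 1.84 with coding length, 1.84 with no division by length and 1.58 with the deposited RPKM, and ran from 1.90 to 1.95 with either library left out. The share of counts ran from 0.272% to 0.302% with either library left out. Of the 54 values for neighbours in the order of levels, 1 changed sign, far-8 over far-6, at -0.30 with coding length. Not all of the 54 could change. A library total cancels in such a ratio, so the alternatives with another total could not move it. Longest transcript length equals exon length in every member but far-7, so it could move only the ratios with far-7. Requiring 100 counts in both libraries left 5 FAR genes detected, without far-4, far-5 and far-7. Of all genes, 30 were called with a summed count of 100 or more, 202 with a 1.5-fold limit and 1634 with no fold limit, against 108. No FAR gene was called except with no fold limit, where 3 of 8 were, against 11.3% of all genes tested. At an unadjusted p under 0.05 the exact binomial test also gave 3 FAR genes, and it gave 2995 of all 14397 genes tested. Where the length, filter or limit was changed, that change itself is the cause of the shift. Shifts with a library left out reflect the difference between the 2 libraries. For the deposited RPKM the cause was not tested. Leaving out a library leaves no comparison between libraries. No paired analysis was possible because there is only 1 group.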
